A study of Mus musculus with 12 samples.

Results

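The genes described here are the ligands of the epidermal growth factor (EGF) family and the ERBB receptors they bind, chosen by symbol as Ereg, Hbegf, Areg, Tgfa, Btc, Nrg1, Egfr, Erbb2 and Erbb3. Of these 9 genes 7 were measured, of 12637 genes in all, and Areg and Btc are not analysed here. The set was chosen with its doxycycline responses and its resting levels in both genotypes in view, so the changes of the 7 genes are given as a description. Calls and intervals from the fit over all genes stand beside them for scale only, and nothing is supported by them. The cells were mouse embryonic fibroblasts (MEFs), a connective tissue cell type cultured from embryos and here immortalised, and their polyadenylated RNA was sequenced. The KO cells carried floxed Crebbp and Ep300 alleles (Crebbpfl/fl; Ep300fl/fl) and a stably expressed Cre-ERT2, a Cre recombinase switched on by 4-hydroxytamoxifen (4-OHT), and had lost CBP and p300, a pair of transcriptional coactivators that acetylate lysines, through 4-OHT. The cells they were set against were labelled wild type (WT), and the labels leave unsaid whether these carried floxed alleles or Cre-ERT2, received 4-OHT or shared a stock with the KO cells. The 4 groups of 3 libraries each were KO with doxycycline (KO Dox), KO with the solvent DMSO (KO DMSO), WT with doxycycline (WT Dox) and WT with DMSO (WT DMSO). Doxycycline, an antibiotic that also slows the ribosomes of mitochondria, was given at 30 µg/ml for 24 hours, and all cells grew in medium with 10% fetal bovine serum, which itself contains growth factors.

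EGF family ligands are made as membrane-anchored precursors and are set free by metalloproteases of the ADAM family. EGFR binds EGF, TGF-alpha, amphiregulin, HB-EGF, betacellulin and epiregulin, while ERBB3 binds neuregulins. ERBB2 has no known ligand of its own and ERBB3 has little kinase activity, so both signal as partners in receptor pairs, which feed the RAS to ERK and the PI3 kinase to AKT pathways. In fibroblasts EGF receptor signalling is a classical mitogenic stimulus, and transcripts of several of the ligands are themselves turned on by growth factor and stress signalling.

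Reads counted in genes came to 44476039 in the shallowest library and 52173143 in the deepest. Levels are given as CPM, read counts brought to a common library size after scaling by the trimmed mean of M values (TMM), and levels of different genes are compared as CPM per kilobase (kb) of exon. That length joins the exons of all annotated transcripts of a gene, whichever of them these cells make. Orders, sums, shares and ratios between genes depend on it. A gene is named as called in a comparison where its Benjamini-Hochberg adjusted p was under 0.05 in edgeR's quasi-likelihood test over all genes. Genotype separated the libraries most, with 95.01% of the variance of log2 CPM on a first principal component that split KO from WT and 2.63% on the second. KO DMSO replicate 1 stood apart from its group on the second component, at -14.1 against -1.64 and -1.70 in KO DMSO replicates 2 and 3. Over 256 processed pseudogenes, that library lay at -0.62 from the KO mean on the log2 scale, and the 3 WT DMSO libraries lay at -0.35 to -0.39 from the WT mean. These 4 libraries form what is named the low-pseudogene set below. Every WT DMSO library and no WT Dox library belonged to it, so in WT cells the set and doxycycline cannot be told apart except by a model that takes the set's size from KO. Counts over whole genes do not check the floxed deletion. Ep300 had 111 to 115 CPM in KO Dox and 120.0 to 128 in KO DMSO, against 178 to 196 in WT Dox and 192 to 200.4 in WT DMSO. Crebbp had 53.7 to 57.0 CPM in KO Dox and 58.8 to 60.4 in KO DMSO, against 60.4 to 63.5 in WT Dox and 65.8 to 67.8 in WT DMSO. The labels do not say that replicates were separate cultures, so p-values and errors measure only how these libraries vary, and that variation may be technical.

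The label fibroblast was set against marker genes. Of 12 fibroblast markers 11 were measured, and their summed level was 3731 to 3767 CPM in KO Dox and 3188 to 3326 CPM in KO DMSO, against 13698 to 14247 CPM in WT Dox and 13649 to 13742 CPM in WT DMSO. The markers were present in both genotypes but lower in KO, with Col3a1, a fibrillar collagen gene, at 1.62 to 1.99 CPM in KO DMSO, against 815 to 830 CPM in WT DMSO. Dcn, which encodes the matrix proteoglycan decorin, was low in every group and had very few reads in KO. It was at 0.0187 to 0.0929 CPM in KO Dox and 0.112 to 0.235 CPM in KO DMSO, against 1.98 to 2.33 CPM in WT Dox and 2.97 to 3.20 CPM in WT DMSO. None of the 10 epithelial and none of the 6 endothelial markers was among the genes analysed here. Of 7 macrophage markers 4 were measured, with sums of 34.4 to 37.0 CPM in KO Dox and 38.2 to 40.5 CPM in KO DMSO, against 22.5 to 23.9 CPM in WT Dox and 32.2 to 33.7 CPM in WT DMSO. Cd68, a lysosomal protein of macrophages that other cells also make, was at 23.6 to 24.9 CPM in KO DMSO, against 1.43 to 1.62 CPM in WT DMSO. The other 3 were lower in KO DMSO. Lyz2 was at 3.04 to 3.29 CPM in KO DMSO and 13.1 to 14.3 CPM in WT DMSO, Cd14 at 10.7 to 11.3 CPM in KO DMSO and 15.6 to 16.6 CPM in WT DMSO, and Csf1r at 0.858 to 1.14 CPM in KO DMSO and 1.37 to 1.41 CPM in WT DMSO. The part of cell identity in the differences between KO and WT given below was not tested, and in bulk RNA fewer cells of a type and less RNA per cell cannot be told apart.

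The promoters of a receptor pair on 1 chromosome are shown because Egfr and Erbb2, which lie on chromosome 11, differed in the comparison of KO with WT. With DMSO, Egfr was 6.28-fold lower in KO, while Erbb2 was nearly level after TMM scaling, at 1.13-fold higher. The windows are the 250 bases before each RefSeq start on the plus strand of GRCm38.p6, chr11:16751953-16752202 for Egfr and chr11:98412234-98412483 for Erbb2, printed 5′ to 3′ with each CG pair in capitals.
Egfr: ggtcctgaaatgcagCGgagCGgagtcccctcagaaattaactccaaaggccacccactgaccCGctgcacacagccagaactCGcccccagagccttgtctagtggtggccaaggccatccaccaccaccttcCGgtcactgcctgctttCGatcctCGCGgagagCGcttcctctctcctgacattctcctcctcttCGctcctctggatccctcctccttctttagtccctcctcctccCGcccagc
Erbb2: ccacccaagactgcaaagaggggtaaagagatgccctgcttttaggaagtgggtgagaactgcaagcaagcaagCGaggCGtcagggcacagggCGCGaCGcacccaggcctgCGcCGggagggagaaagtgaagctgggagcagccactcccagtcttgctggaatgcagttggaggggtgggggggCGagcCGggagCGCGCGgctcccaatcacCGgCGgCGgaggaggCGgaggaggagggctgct
Both windows are rich in G and C, at 60.8% for Egfr and 66% for Erbb2, against a median of 52.4% over 32851 mouse promoter windows of that length. They hold 11 CG pairs for Egfr and 16 for Erbb2. The Erbb2 window ends at 98412483, past the gene's first position of 98412470 in the annotation used for exon lengths. Neither window holds, on either strand, the letters of an AP-1 motif (TGANTCA, in 6.75% of all windows), a cAMP response element (TGACGTCA, in 1.55%) or a TATA box (TATAAA, in 12.4%), and neither holds the NF-kappa B consensus (in 3.9%). The same holds for the window of Tgfa, with 69.2% G and C, and for that of Btc. The window of Areg holds 1 cAMP response element and 1 TATA box, and the levels of Btc and Areg are not analysed here. RefSeq windows matched 5 of the 9 genes by symbol.

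Among the 4 measured ligands of the chosen set Ereg had the largest doxycycline fold change in KO and the smallest in WT. Its level with Dox was far below that with DMSO in KO and little below it in WT. Egf, a measured ligand outside the set, is given further below. Ereg encodes epiregulin, a ligand of EGFR and ERBB4, and lies on chromosome 5 (positions 91074622 to 91093646 of GRCm38, ENSMUSG00000029377). It had 95.3, 93.3 and 96.7 CPM in the 3 KO Dox libraries, against 255, 258 and 263 CPM in the KO DMSO libraries. In WT cells it had 52.0, 48.6 and 47.8 CPM with Dox, against 52.3, 54.0 and 53.2 CPM with DMSO. All KO Dox libraries lay below all KO DMSO libraries and above every WT library, so KO Dox stood between KO DMSO and the WT groups. The log2 fold change of doxycycline was -1.44 ± 0.0260 in KO (SE, n = 3 and 3), which is 2.72-fold lower, and -0.10 ± 0.0311 in WT. Ranked over 12637 genes, the KO value was number 33 from the lowest. The difference between the responses, KO minus WT, was -1.34 ± 0.0405.

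Resting Ereg was 4.86-fold higher in KO than in WT with DMSO, at 258 ± 4.05 CPM in KO DMSO and 53.2 ± 0.866 CPM in WT DMSO (SD, n = 3 each). The log2 fold change was 2.28 ± 0.0279. The small doxycycline value of WT was -0.08 and no longer called when WT Dox replicate 3 was left out. The antisense gene Gm19610 overlaps 3.42% of the Ereg exons, and without a stated strand of counting its reads cannot be told apart from those of Ereg there.

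Hbegf was higher with doxycycline than with DMSO in both genotypes, and many times higher in KO than in WT. Hbegf encodes heparin-binding EGF-like growth factor, a ligand of EGFR and ERBB4 (chromosome 18, positions 36504927 to 36515805, ENSMUSG00000024486). It had 499, 502 and 496 CPM in KO Dox, against 359, 356 and 361 CPM in KO DMSO. In WT it had 38.8, 38.9 and 39.2 CPM with Dox, against 30.4, 30.7 and 27.8 CPM with DMSO. Dox libraries lay above DMSO libraries in each genotype, with no overlap. The doxycycline log2 fold change was 0.48 ± 0.0226 in KO (1.39-fold, number 135 from the highest of all genes) and 0.39 ± 0.0326 in WT (1.31-fold). The difference between the responses, KO minus WT, was 0.08 ± 0.0398, with a 95% interval of -0.01 to 0.17. It was not called, except at 0.13 when WT DMSO replicate 3 was left out. The genotype difference was far larger. With DMSO, Hbegf averaged 359 ± 2.77 CPM in KO and 29.6 ± 1.62 CPM in WT, 12.1-fold higher in KO (log2 3.60 ± 0.0284), number 42 from the highest of all genes.

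**Figure D1:**
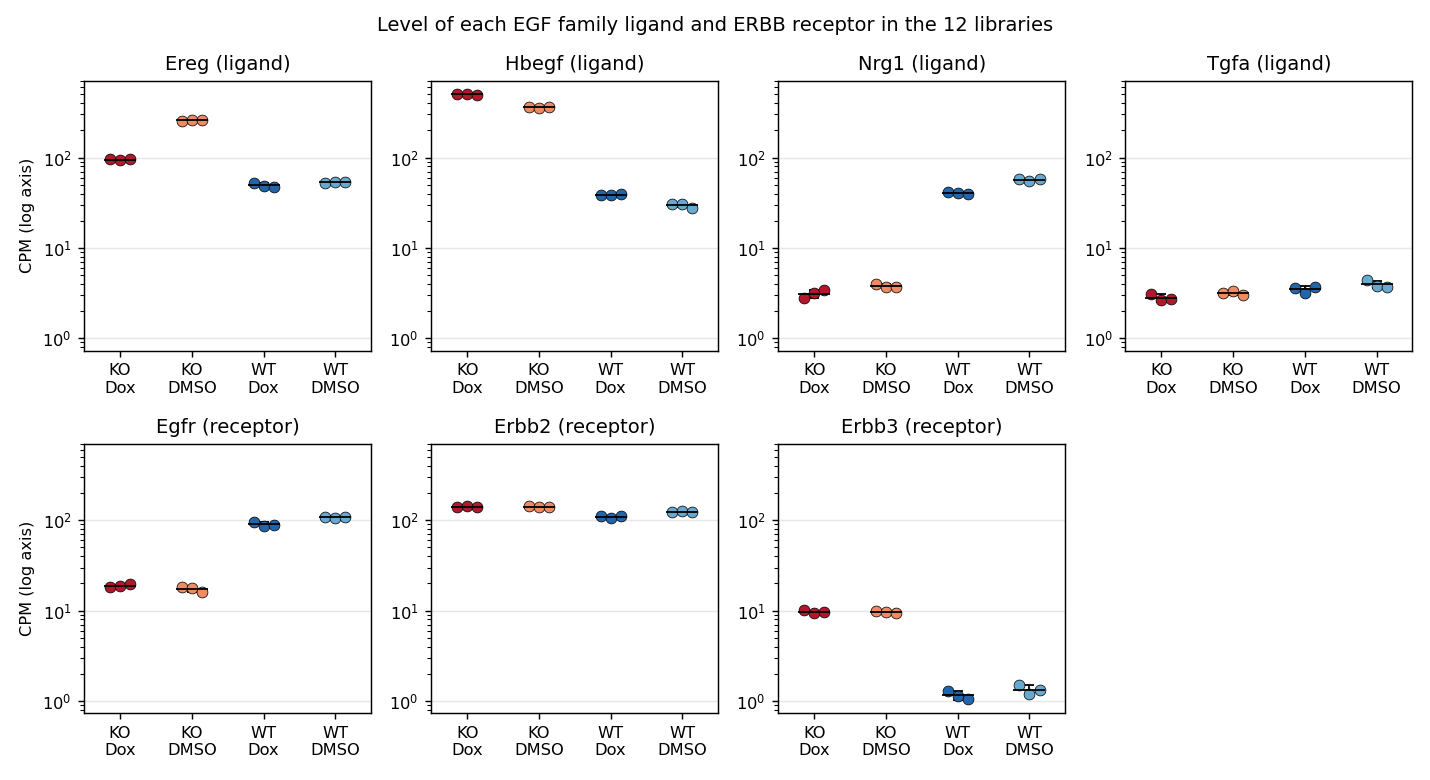
Level of each of the 7 measured genes in CPM after TMM scaling (log axis), with 1 point per library, a dash at the group mean and a bar of ± 1 SD, for KO Dox, KO DMSO, WT Dox and WT DMSO (n = 3 each). Ereg sits at 93.3 to 96.7 CPM in KO Dox and 255 to 263 CPM in KO DMSO, while Nrg1 and Egfr sit far lower in both KO groups than in both WT groups.

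Nrg1 ran the other way from Hbegf in both contrasts. Nrg1 encodes neuregulin 1, a ligand of ERBB3 and ERBB4 (chromosome 8, positions 31814551 to 32884029, ENSMUSG00000062991). It had 2.77, 3.17 and 3.38 CPM in KO Dox, against 4.04, 3.74 and 3.66 CPM in KO DMSO, from 146 to 205 reads per library. In WT it had 41.3, 40.2 and 39.8 CPM with Dox, against 57.4, 54.6 and 58.0 CPM with DMSO. Dox libraries lay below DMSO libraries in each genotype, by a narrow gap in KO and a wide one in WT. The log2 fold change of doxycycline was -0.29 ± 0.0861 in KO and -0.49 ± 0.0353 in WT. Without KO DMSO replicate 1 the KO value was -0.24 and without KO Dox replicate 1 it was -0.21, and Nrg1 was not called in either. With a term for the low-pseudogene set it was -0.25 in KO, again not called, and -0.36 in WT. With DMSO, Nrg1 was 14.9-fold lower in KO, at 3.81 ± 0.1996 CPM in KO and 56.6 ± 1.80 CPM in WT, a log2 fold change of -3.89 ± 0.0517.

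Tgfa, the gene of transforming growth factor alpha, an EGFR ligand (chromosome 6, positions 86195223 to 86275719, ENSMUSG00000029999), was low throughout. It ranged over 2.62 to 3.10 CPM in KO Dox, 2.98 to 3.31 in KO DMSO, 3.19 to 3.67 in WT Dox and 3.72 to 4.40 in WT DMSO. KO Dox overlapped KO DMSO, and WT Dox lay just below WT DMSO. The log2 fold change of doxycycline was -0.17 ± 0.103 in KO and -0.19 ± 0.0970 in WT, neither called, and that of KO against WT with DMSO was -0.33 ± 0.0984. Without TMM scaling the genotype value was -0.19 and not called.

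Set side by side per kb of exon, the ligand mix differed between the genotypes and, in each genotype, between treatments. The summed level of the 4 ligands was 127 ± 0.258 CPM per kb in KO Dox and 138 ± 1.31 in KO DMSO, against 24.5 ± 0.576 in WT Dox and 25.1 ± 0.256 in WT DMSO (SD, n = 3 each). Hbegf took 81.3 ± 0.379% of that sum in KO Dox and 53.9 ± 0.328% in KO DMSO, against 32.9 ± 0.921% in WT Dox and 24.4 ± 1.09% in WT DMSO. Ereg took 18.1 ± 0.365% in KO Dox and 45.5 ± 0.351% in KO DMSO, against 48.9 ± 1.02% in WT Dox and 51.3 ± 0.887% in WT DMSO. In KO cells the ligand sums with Dox and with DMSO did not overlap, and their parts differed far more than their size. The ratio of Hbegf to Ereg was 4.48 ± 0.111 in KO Dox and 1.19 ± 0.0164 in KO DMSO, against 0.673 ± 0.0326 in WT Dox and 0.476 ± 0.0268 in WT DMSO. Nrg1 held 0.236% of the sum in KO Dox and 0.267% in KO DMSO, against 15.96% in WT Dox and 21.8% in WT DMSO. Tgfa held at most 2.45% in any group mean. These sums treat transcripts as equal and say nothing of the proteins. They leave out Egf, which was measured but lies outside the chosen set, and the ligands not analysed here.

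**Figure D2:**
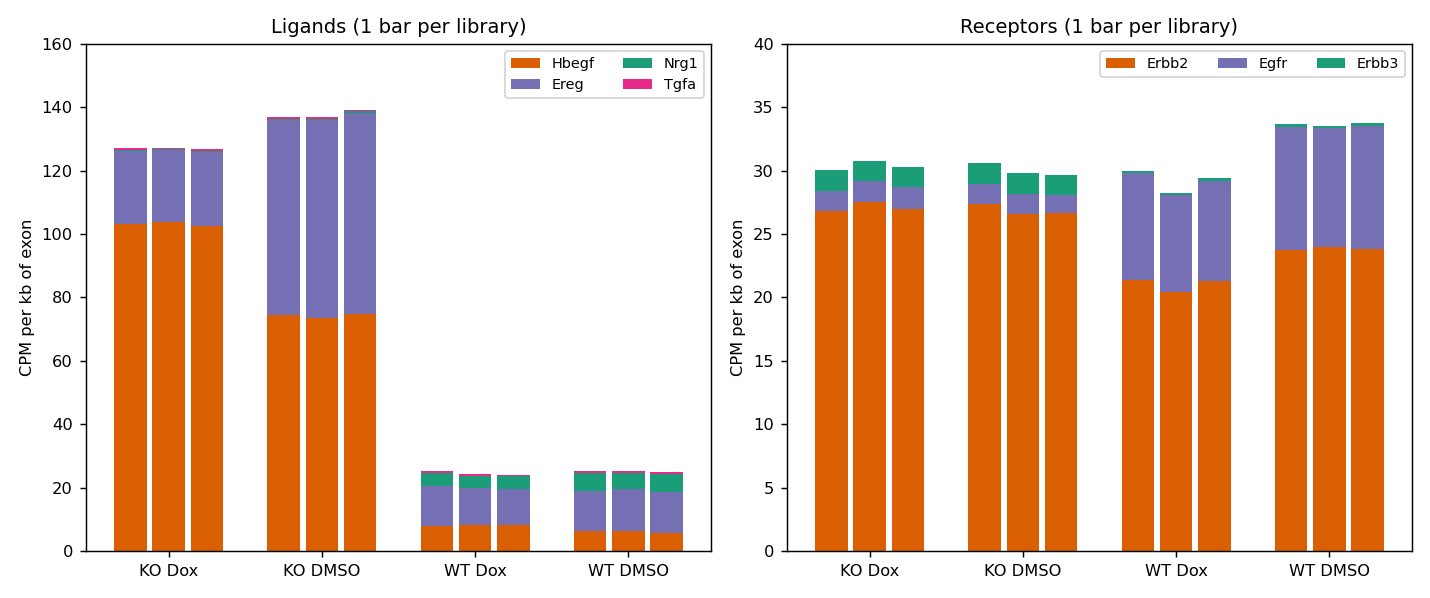
Summed level of the 4 ligands (left) and of the 3 receptors (right) in CPM per kb of exon, stacked by gene, with 1 bar per library in KO Dox, KO DMSO, WT Dox and WT DMSO. The Ereg part shrinks and the Hbegf part grows in KO Dox against KO DMSO, and Erbb2 makes up 89.2% of the receptor sum in KO Dox and 70.9% in WT DMSO.

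Among the receptors, Egfr was the gene that separated the genotypes in the downward direction. Egfr encodes the EGF receptor itself, a receptor tyrosine kinase (chromosome 11, positions 16752203 to 16918158, ENSMUSG00000020122). It had 18.3, 18.7 and 19.5 CPM in KO Dox, against 18.1, 17.7 and 16.1 CPM in KO DMSO. In WT it had 95.5, 86.4 and 89.6 CPM with Dox, against 109.7, 106 and 109.96 CPM with DMSO. All KO Dox libraries lay above the KO DMSO libraries by a narrow gap, and all WT Dox libraries lay below the WT DMSO libraries. The doxycycline log2 fold change was 0.12 ± 0.0513 in KO, not called, and -0.26 ± 0.0337 in WT, and their difference, KO minus WT, was 0.38 ± 0.0614. Without KO DMSO replicate 1 the KO value was 0.17 and called, and without WT Dox replicate 1 it was 0.12 and called. With a term for the low-pseudogene set the WT value was -0.16 and not called, and the difference was 0.32. With DMSO, Egfr was 6.28-fold lower in KO, at 17.3 ± 1.04 CPM in KO and 108 ± 2.35 CPM in WT (log2 -2.65 ± 0.0417).

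After TMM scaling Erbb2 was the most even of the 7 measured genes. It encodes the receptor tyrosine kinase ERBB2 (chromosome 11, positions 98412470 to 98437716, ENSMUSG00000062312), and 9 bases of its exons overlap Mien1 on the other strand. It had 139.6, 143 and 141 CPM in KO Dox, against 143, 139 and 139 CPM in KO DMSO. In WT it had 111, 107 and 111 CPM with Dox, against 124, 125 and 124 CPM with DMSO. The KO groups overlapped, and the WT groups did not, with WT Dox lowest of the 4. The doxycycline log2 fold change was 0.01 ± 0.0231 in KO, with a 95% interval of -0.04 to 0.07, and -0.18 ± 0.0238 in WT, or -0.14 with a term for the low-pseudogene set. Their difference was 0.19 ± 0.0331. With DMSO, Erbb2 was 1.13-fold higher in KO (log2 0.17 ± 0.0234). Without TMM scaling that log2 fold change was 0.32.

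Erbb3, a neuregulin receptor gene (chromosome 10, positions 128567523 to 128589652, ENSMUSG00000018166), differed by genotype, and its Dox and DMSO libraries were mixed. It had 10.1, 9.51 and 9.55 CPM in KO Dox, against 9.82, 9.74 and 9.42 CPM in KO DMSO. In WT it had 1.29, 1.14 and 1.04 CPM with Dox, against 1.496, 1.19 and 1.33 CPM with DMSO, from 51 to 73 reads per library. Dox and DMSO libraries overlapped in both genotypes, while each KO library lay far above each WT library. The doxycycline log2 fold change was 0.01 ± 0.0607 in KO and -0.21 ± 0.135 in WT, whose 95% interval was -0.52 to 0.10. With DMSO, Erbb3 was 7.21-fold higher in KO, at 9.66 ± 0.211 CPM in KO and 1.34 ± 0.154 CPM in WT (log2 2.85 ± 0.0884), number 104 from the highest of all genes.

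The receptor sum varied far less than the ligand sum and spanned 28.3 to 33.7 CPM per kb over the 12 libraries. It was 30.4 ± 0.339 CPM per kb in KO Dox and 30.03 ± 0.507 in KO DMSO, against 29.2 ± 0.884 in WT Dox and 33.7 ± 0.106 in WT DMSO (SD, n = 3 each). Erbb2 made up 89.2% of it in KO Dox and 89.6% in KO DMSO, against 72.0% in WT Dox and 70.9% in WT DMSO. The ratio of Erbb2 to Egfr was 16.3 ± 0.544 in KO Dox and 17.6 ± 0.956 in KO DMSO, against 2.64 ± 0.0886 in WT Dox and 2.49 ± 0.0680 in WT DMSO. Egfr and Erbb3 stood at a ratio of 1.03 ± 0.0603 in KO Dox and 0.951 ± 0.0366 in KO DMSO, against 41.8 ± 3.46 in WT Dox and 43.4 ± 4.18 in WT DMSO. With DMSO, Nrg1 was lower in KO while Erbb3, which encodes a receptor of its product, was higher in KO.

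Ordered by CPM per kb, Hbegf led in KO, at 103.2 in KO Dox and 74.2 in KO DMSO, above 97.4% and 96.0% of all genes. Erbb2 at 27.1 and Ereg at 23.0 followed in KO Dox. In KO DMSO the next were Ereg at 62.6 and Erbb2 at 26.9. Egfr and Erbb3 came after these and overlapped each other, at 1.66 and 1.61 in KO Dox and 1.53 and 1.61 in KO DMSO. Tgfa and Nrg1 came last in both KO groups, at 0.432 and 0.3001 in KO Dox. In WT cells Erbb2 led, at 21.0 in WT Dox and 23.9 in WT DMSO, and Ereg was next, at 11.99 in WT Dox and 12.9 in WT DMSO. Hbegf and Egfr overlapped in WT Dox, at 8.06 and 7.99, and stood apart in WT DMSO, at 6.13 and 9.58. Nrg1 followed, at 3.91 in WT Dox and 5.47 in WT DMSO, with Tgfa below it and Erbb3 last, at 0.192 in WT Dox and 0.222 in WT DMSO. The other neighbours in these orders did not overlap. The orders rest on the exon lengths used, such as 10.351 kb for Nrg1 and 4.834 kb for Hbegf. Before division by length, Nrg1 stood above Hbegf in WT DMSO, at 56.6 against 29.6 CPM.

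**Figure D3:**
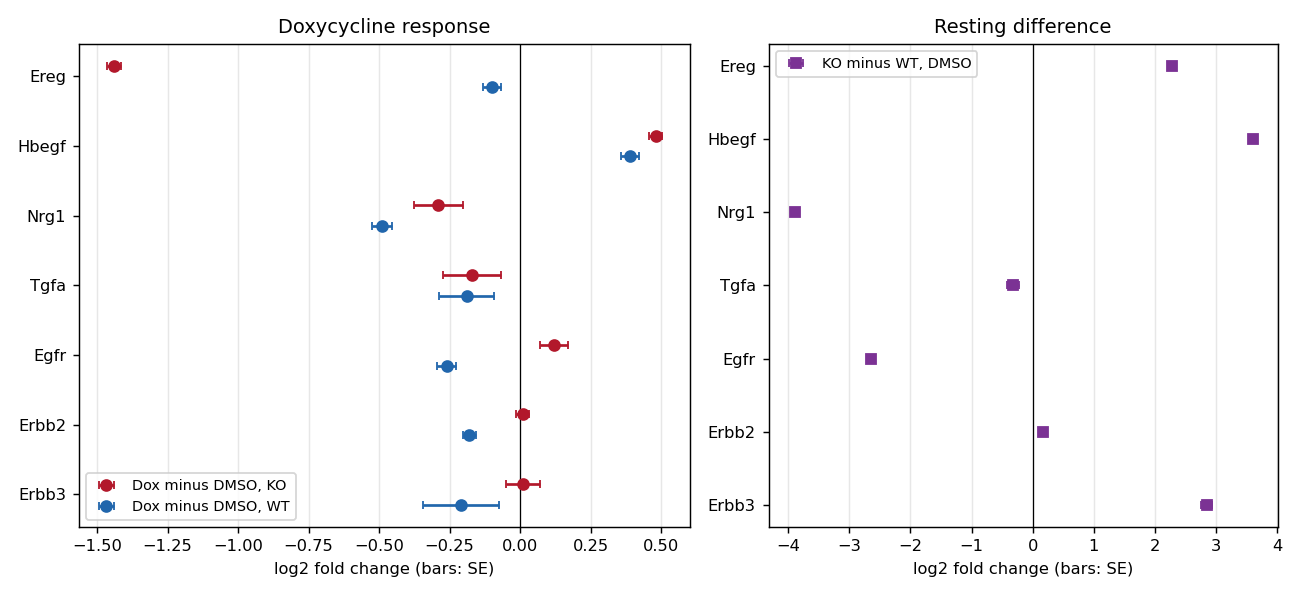
Log2 fold change of the 7 measured genes with its SE (n = 3 and 3 libraries), for Dox against DMSO in KO and in WT (left) and for KO against WT with DMSO (right). Ereg stands at -1.44 in KO and -0.10 in WT, Hbegf lies to the right in both genotypes, and the genotype differences reach 3.60 for Hbegf and -3.89 for Nrg1.

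Counts of calls are given for scale, beside the share of all genes called. For doxycycline in KO, 1 of the 7 genes was called higher and 2 lower, where 11.6% and 10.1% of all genes were. In WT 1 was called higher and 4 lower, where 23.9% and 29.2% of all genes were. For the difference between the responses 2 were called higher and 1 lower, where 18.2% and 14.3% of all genes were. For KO against WT with DMSO all 7 were called, 4 higher and 3 lower, where 45.1% and 44.3% of all genes were. At a fold of at least 2, doxycycline in KO called 0 of the 7 higher and Ereg lower, where 0.0554% and 0.182% of all genes were called. In WT none was called at that fold, where 1.33% of all genes were higher and 0.269% lower. For the difference between the responses 0 were higher and Ereg was lower, where 0.237% and 0.609% of all genes were. For KO against WT 3 were higher and 2 lower at that fold, where 10.8% and 16.7% of all genes were. The median log2 fold change of the 7 genes was 0.01 for doxycycline in KO, against -0.001 over all genes, and -0.19 for doxycycline in WT, against -0.02 over all genes. For KO against WT it was 0.17, against 0.02 over all genes. All of these comparisons were in view when the genes were chosen, so nothing is read from the counts. The comparisons share libraries, the KO DMSO and WT DMSO groups each serving in several.

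For each gene the 5 genes with the most similar course over the 12 libraries were found among 11249 genes, by the root mean square distance between log2 CPM centred on its mean. For Ereg the nearest 4 were Gadd45b, Tapbpl, Wdr45 and Krt7, at distances of 0.384 to 0.407, where Ereg's own spread was 0.955. For Hbegf they were Tmem62, Hip1r, Cystm1, Dusp3 and Ralgps1, at 0.217 to 0.259 with a spread of 1.83. Nrg1 had closer neighbours, C1qtnf1, Cyp1b1, Fat4, St3gal1 and Ank3, at 0.0803 to 0.122 with a spread of 1.90. For Egfr they were Ksr1, Thra, Cdh11, Ada and Cd248, at 0.0482 to 0.0719 with a spread of 1.23. For Erbb3 they were Atp6v0e2, Kdm7a, Pard3b, Enpp5 and Slc46a3, at 0.0919 to 0.132 with a spread of 1.47. Erbb2 was nearest to Crot, Vps35l, Zfp319, Keap1 and Crebzf, at 0.0301 to 0.0335 with a spread of 0.151. Tgfa was nearest to Rfx5, Sh3bp5, Gramd4, Elmo2 and Ccar2, at 0.0811 to 0.0927 with a spread of 0.206. These distances over libraries that split by genotype are a description only.

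The rest of the pathway was read from lists of 69 measured genes in the same fit. These lists too were chosen with earlier results of these data known. Their calls and adjusted p-values are therefore given as a description. For doxycycline in KO 16 rose, 13 fell and 40 did not pass, where 11.6% of all genes rose and 10.1% fell. For doxycycline in WT 13 rose, 25 fell and 31 did not pass, or 8 and 13 with a term for the low-pseudogene set, where 23.9% of all genes rose and 29.2% fell without that term. For KO against WT with DMSO 37 were higher, 28 lower and 4 did not pass, where 45.1% of all genes were higher and 44.3% lower. The median log2 fold change of the 69 genes was 0.01 for doxycycline in KO, -0.03 in WT and 0.11 for KO against WT, where those over all genes were -0.001, -0.02 and 0.02. Egf, the only measured gene of 6 other family members, had 3.11 ± 0.131 CPM in KO Dox and 3.74 ± 0.399 CPM in KO DMSO, against 3.64 ± 0.103 CPM in WT Dox and 3.84 ± 0.212 CPM in WT DMSO (SD, n = 3 each). Its doxycycline log2 fold change in KO was -0.27 ± 0.0930 (edgeR adjusted p = 0.04), a call that was lost in DESeq2 (adjusted p = 0.13), with the set term (edgeR adjusted p = 0.11) and when KO DMSO replicate 1 or 3 or any KO Dox replicate was left out (edgeR adjusted p of 0.068 to 0.19).

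Of 10 genes for shedding of the ligands, 3 rose and 2 fell with doxycycline in KO, and 1 rose and 5 fell in WT. Over all genes 11.6% rose and 10.1% fell in KO, and 23.9% rose and 29.2% fell in WT. Adam12, a metalloprotease that cleaves HB-EGF, rose in KO by 1.88 ± 0.273 on the log2 scale (edgeR adjusted p = 1.8e-05), at 0.764 ± 0.0904 CPM in KO Dox and 0.205 ± 0.0272 CPM in KO DMSO, and fell in WT by 0.37 (edgeR adjusted p = 0.00015), at 9.54 ± 0.488 CPM in WT Dox and 12.3 ± 1.47 CPM in WT DMSO. The KO values rest on few reads, and with the set term the WT value was -0.05 and not called. Adam17, the main sheddase of Ereg, Hbegf, Tgfa and Areg products, had 71.1 ± 1.95 CPM in KO Dox and 70.03 ± 1.21 CPM in KO DMSO and was not called in KO (log2 0.02 ± 0.0270, edgeR adjusted p = 0.6). In WT it was called lower at -0.07 ± 0.0256, and for KO against WT with DMSO it was called lower at -0.56 ± 0.0264. Rhbdf2, an iRhom that carries ADAM17 to the cell surface, fell in both genotypes, by 0.13 in KO (edgeR adjusted p = 0.015) and by 0.16 in WT (edgeR adjusted p = 0.0024), and lost both calls with the set term, at -0.07 in KO and -0.01 in WT. Its KO call was also lost without KO DMSO replicate 1, at -0.06, and without KO Dox replicate 1 or 3, at -0.13 and -0.11. With DMSO, 3 of the 10 were higher in KO and 7 lower, where 45.1% and 44.3% of all genes were. Timp3, the tissue inhibitor that blocks ADAM17, was at 0.831 ± 0.0436 CPM in KO DMSO and 52.5 ± 2.05 CPM in WT DMSO (log2 -5.97 ± 0.0770, edgeR adjusted p = 1.5e-27). Adam12 had a log2 fold change of -5.89 ± 0.148 (edgeR adjusted p = 1.1e-21), and Rhbdf1, the other iRhom, was higher in KO at 0.79 ± 0.0274 (edgeR adjusted p = 9.7e-19).

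Of 14 measured genes that restrain or recycle the receptors, 1 rose and 4 fell with doxycycline in KO, and 2 rose and 5 fell in WT. The shares of all genes that rose and fell were 11.6% and 10.1% in KO and 23.9% and 29.2% in WT. Errfi1, which encodes the EGFR kinase inhibitor MIG6, fell in both genotypes. It had 95.8 ± 2.51 CPM in KO Dox and 123 ± 2.30 CPM in KO DMSO, a fall of 0.36 on the log2 scale (edgeR adjusted p = 6.1e-11), and 193 ± 0.784 CPM in WT Dox and 228 ± 3.36 CPM in WT DMSO, a fall of 0.24 (edgeR adjusted p = 5.1e-09). Eps15, an endocytic adaptor, rose in WT by 0.38 ± 0.0353 (edgeR adjusted p = 1.9e-08). Cbl, a ubiquitin ligase for EGFR, had a log2 fold change of 0.01 in both genotypes and was not called (edgeR adjusted p = 0.87 in KO and 0.84 in WT). With DMSO, 6 of the 14 were higher in KO and 7 lower, where 45.1% and 44.3% of all genes were. Lrig1, a transmembrane inhibitor of ERBB receptors, was 3.95-fold lower in KO, at 65.7 ± 1.57 CPM in KO DMSO and 259.5 ± 2.86 CPM in WT DMSO (edgeR adjusted p = 3.6e-28). Errfi1 was lower by a log2 fold change of -0.88 ± 0.0232 (edgeR adjusted p = 2.6e-21), and Usp8, a deubiquitinase of endosomes, was higher by 0.90 ± 0.0213 (edgeR adjusted p = 3.6e-22).

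Of 34 adaptors and kinases below the receptors, 9 rose and 4 fell with doxycycline in KO, and 9 rose and 11 fell in WT. Among all genes 11.6% rose and 10.1% fell in KO, and 23.9% rose and 29.2% fell in WT. Mapk3, which encodes ERK1, rose by 0.14 ± 0.0254 in KO (edgeR adjusted p = 0.00025) and fell by 0.32 in WT (edgeR adjusted p = 9.2e-11), with 92.1 ± 1.94 CPM in KO Dox, 83.5 ± 0.377 CPM in KO DMSO, 126 ± 3.64 CPM in WT Dox and 158 ± 0.444 CPM in WT DMSO. The difference between its responses was 0.46 ± 0.0349 (edgeR adjusted p = 3.5e-10). Stat5a, a transcription factor that ERBB receptors can activate, fell in WT by 0.62 (edgeR adjusted p = 1.5e-12). In KO it was also called lower, at -0.13 ± 0.0378. With DMSO, 22 of the 34 were higher in KO and 10 lower, where 45.1% and 44.3% of all genes were. Among them were Araf at 1.36 ± 0.0287 (edgeR adjusted p = 2.9e-23), Pik3cb at 1.58 ± 0.0361 (edgeR adjusted p = 1.6e-22) and Pik3r1, a regulatory subunit of PI3 kinase, at -2.53 ± 0.0400 (edgeR adjusted p = 4.3e-24). Map2k2 was not called, and its sign there depended on the scaling.

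Of 10 genes commonly used as output of the ERK pathway, 3 rose and 2 fell with doxycycline in KO, and 1 rose and 4 fell in WT, and the others did not pass. For scale, 11.6% of all genes rose and 10.1% fell in KO, and 23.9% rose and 29.2% fell in WT. Dusp6, an ERK phosphatase, rose in KO by 0.30 ± 0.0237 (edgeR adjusted p = 1.5e-09), with 146 ± 2.46 CPM in KO Dox and 119 ± 1.68 CPM in KO DMSO. In WT it was called lower at -0.15 ± 0.0258, with 75.0 ± 1.88 CPM in WT Dox and 83.1 ± 0.837 CPM in WT DMSO. Phlda1 fell in both genotypes, by 0.57 in KO (edgeR adjusted p = 8.2e-09) and by 0.46 in WT (edgeR adjusted p = 8.4e-10). Spry2, a feedback inhibitor of receptor tyrosine kinase signalling, fell in WT by 0.43 (edgeR adjusted p = 8.7e-11), and the difference between its responses was 0.44 ± 0.0521 (edgeR adjusted p = 6.9e-07). Etv4 and Etv5, transcription factors of the ETS family, were called in neither genotype. With DMSO, 6 were higher in KO and 4 lower, where 45.1% and 44.3% of all genes were. Ccnd1, which encodes cyclin D1, was 23.3-fold lower in KO, at 23.03 ± 0.667 CPM in KO DMSO and 536 ± 3.33 CPM in WT DMSO (edgeR adjusted p = 3.5e-33), and Spry2 was 3.39-fold lower (edgeR adjusted p = 1.4e-23). Epha2, a receptor tyrosine kinase gene, was higher in KO by 0.75 ± 0.0296 (edgeR adjusted p = 1.2e-17).

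**Figure D4:**
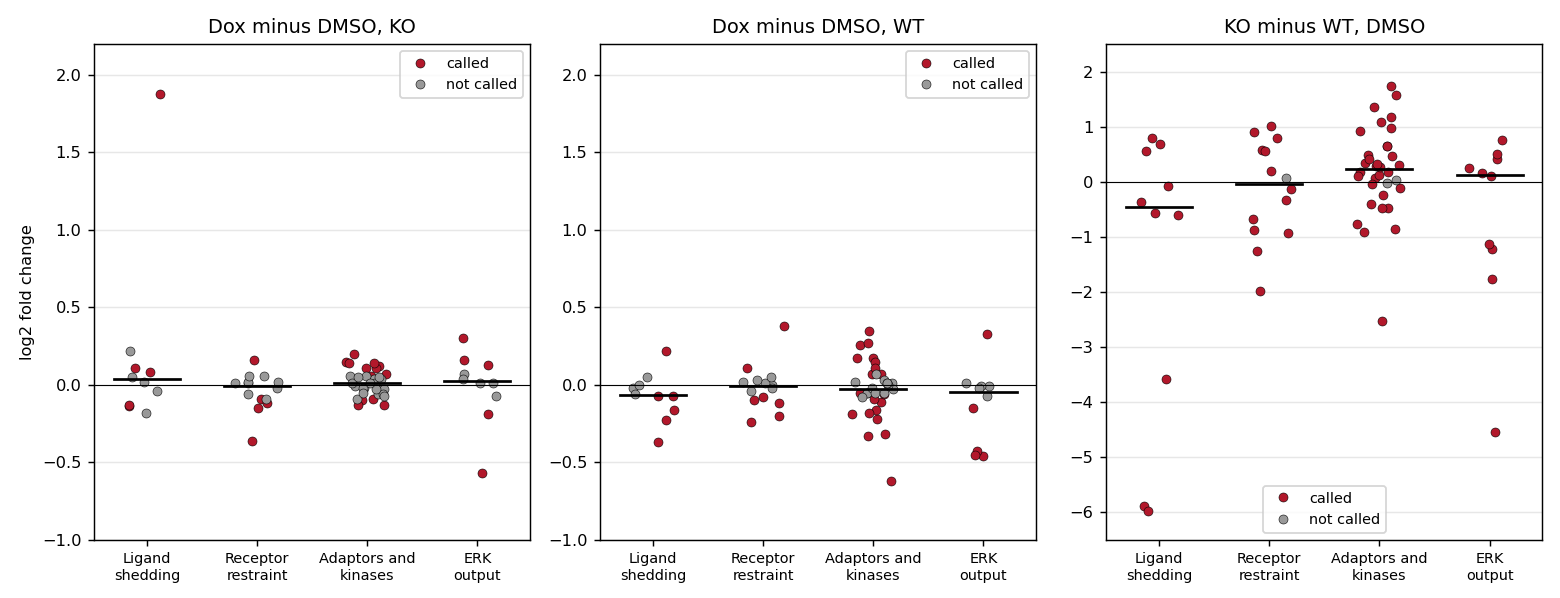
Log2 fold change of each gene of the 4 pathway lists, 1 point per gene, for Dox against DMSO in KO, for Dox against DMSO in WT and for KO against WT with DMSO, red where called in edgeR and grey where not, with a black line at the list median. Adam12 at 1.88 stands alone in KO, and the genotype panel, on a wider axis, reaches -5.97 for Timp3 and -4.54 for Ccnd1.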

How the data were processed

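Polyadenylated RNA of MEFs was sequenced on the BGISEQ-500 platform, per the labels' protocols. The authors deposited 1 table of raw read counts per gene for all 12 libraries. The submitters' processing notes name STAR 2.6.0a, HTSeq 0.10.0 and the build GRCm38.p6. The roles of the tools and the strand of counting are not given in the sources used here, nor is the rule by which genes were listed. The table's 4 rows of unassigned reads, 17.4 to 22.9% of reads, were kept out of library sizes and tests.

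Counts were fitted in edgeR 4.0.16 (R 4.3.3) with 4 group means, TMM scaling, robust quasi-likelihood F tests and Benjamini-Hochberg adjustment over 12637 genes. An SE is the log2 fold change divided by the square root of F. Exon lengths came from a GENCODE annotation of GRCm38 (12628 gene IDs matched). The code was tested on simulated data. Members and lists were chosen with earlier results of these data known. Named pathway genes are up to 4 called with the smallest p and up to 2 uncalled with the highest level per list and contrast, and the text gives part of these. Some genes that this rule or the search for similar courses named are not reported here. The alternatives were other scalings, tools (DESeq2 1.42.0, limma-voom 3.58.1), a filter, a set term, a block, a 2-fold threshold and each library left out. Precision at 44476039 to 52173143 gene reads per library is limited for Erbb3 in WT and for Tgfa.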

Additional observations from a re-analysis of the deposited data

Results flagged for a closer look

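By the interaction test of doxycycline and KO (edgeR, adjusted p under 0.05), 18 of the 69 pathway genes were called higher and 9 lower. Of all genes, 18.2% were called higher and 14.3% lower in that test. The 16 called genes given here are those kept by the rule for naming genes, which limits the number per list. That number is therefore set by the rule and is not a result. The differences, KO minus WT on the log2 scale, were 2.25 for Adam12, 0.18 for Adam10, 0.19 for Frmd8 and -0.13 for Adam9 among the shedding genes. They were 0.21 for Ptpn1, -0.33 for Eps15, -0.14 for Usp8 and 0.20 for Lrig3 among the genes of receptor restraint. Among adaptors and kinases they were 0.46 for Mapk3, 0.49 for Stat5a, -0.42 for Pik3cb and 0.24 for Stat3. Among output genes they were 0.45 for Dusp6, 0.44 for Spry2, -0.21 for Epha2 and 0.24 for Dusp4. With a term for the low-pseudogene set, Lrig3 (adjusted p = 0.076) and Dusp4 (adjusted p = 0.07) were no longer called in edgeR. For Egfr every KO Dox library lay above and every WT Dox library below its DMSO libraries, a difference of 0.38 that was called in the edgeR fit and is given as a description only, since the gene was chosen with it in view. Outside the counted genes, unmapped reads made up 7.63% of KO DMSO replicate 1 and 6.65% of KO DMSO replicate 2, against 1.85 to 2.09% in the other 10 libraries.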

How the results depend on the processing

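Scaling by median ratio, the stricter filter, DESeq2, limma-voom and a fit of only the groups compared, which gives no interaction, left the counts of called genes they give within 1.5 times. With a term for the low-pseudogene set, doxycycline in WT called 1267 of all genes higher and 1583 lower and 8 and 13 pathway genes, and in KO 1 of the family genes lower. At a fold of at least 2, doxycycline in WT called 168 genes higher and 34 lower, with 0 family and 0 pathway genes. In KO it called 7 higher and 23 lower, with 0 family genes higher and 1 lower and 1 pathway gene higher and 0 lower. The interaction then called 30 higher and 77 lower, with 0 family genes higher and 1 pathway gene higher and 0 lower, and KO against WT 1368 higher and 2105 lower, with 6 and 10 pathway genes. With 1 library left out, doxycycline in KO called 766 to 1647 genes lower, 1 to 2 family genes higher, 1 to 2 lower and 8 to 15 pathway genes lower. KO DMSO replicate 1 (831 lower without it), KO Dox replicate 1 (766) and KO Dox replicate 2 (836) moved that count most, and without KO DMSO replicate 1 the share of calls that were higher was 63.9%, against 53.4% with it. Without TMM scaling the median of all genes for KO against WT was 0.167, against 0.02 with it, and Map2k2 was at 0.13 in place of -0.02, called in edgeR (adjusted p = 0.00074); the cause was not tested beyond that shift. Same-numbered replicates did not deviate together (correlations -0.108 to 0.112 over 18 pairs, 1 over 0.1). With the replicate number as a block, doxycycline in KO called 15 pathway genes higher and 12 lower, and Egf was lost there (edgeR adjusted p = 0.053). Depth limits Erbb3 in WT, with 51 to 73 reads, and Adam12 in KO.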
